A study of Mus musculus with 20 samples.

Results

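Oligodendrocyte precursor cells divide in the newborn brain, respond to PDGF through the receptor PDGFRα, and pass through a short GPR17-positive stage before they differentiate into myelin-forming oligodendrocytes. The transcription factors OLIG1, OLIG2 and NKX2-2 set and keep this lineage. The genes described here are 8 that are commonly used to mark precursors and their immediate progeny: Pdgfra, Cspg4 (the NG2 proteoglycan), Olig1, Olig2, Gpr17 (a G protein-coupled receptor), Nkx2-2, Lhfpl3 (a tetraspan membrane protein) and Bcas1 (a gene of newly differentiating oligodendrocytes). They were taken by gene symbol from the deposited table of 45700 genes, each symbol had 1 row, and all 8 members passed the filter on low values (1 FPKM, an abundance scaled to transcript length and library total, on average across libraries) that left 15247 genes for testing.

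The transcriptome (total RNA, RNA-seq) and the translatome (RNA from polysomal sucrose gradient fractions, POL-seq) were sequenced from whole brain of "Taiwanese" SMA mice and control littermates. SMA mice lacked both copies of mouse Smn and were hemizygous for the human SMN2 transgene (Smn-/-; SMN2tg/0), and controls carried the same transgene but kept 1 Smn copy (Smn-/+; SMN2tg/0), so that every animal was heterozygous or null for Smn and every animal carried SMN2. At the early-symptomatic stage (postnatal day 5) each genotype had 2 total and 2 polysomal libraries, and at the late-symptomatic stage (postnatal day 7) it had 3 of each, 20 libraries in all. Mice were on an FVB background, and nothing in the labels says that libraries came from separate litters, so p-values measure the spread between these libraries.

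Values were deposited as FPKM, without counts, so that the number of reads behind a value is unknown and no counting interval can be given. Among genes with transcripts of 300 to 400 nt, the 10th percentile of FPKM values above 0 was 0.11 in the deepest-looking library and 0.31 in the shallowest, and the late-symptomatic total RNA libraries lay at 0.22 to 0.31 against 0.14 to 0.18 in the early-symptomatic ones. The stages also differed in their most abundant RNA, which was Gm26377 in all 8 early libraries and Rpph1, Rmrp, Rn7sk or Snord22 in the 12 late ones. In both early control polysomal libraries 63 tested genes were listed at 0 that exceeded 1 FPKM in each of the other 18 libraries, Tubb3 among them. None of the 8 members was among these, and no member was listed at 0 in any library.

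Smn1, the disrupted gene, did not separate the genotypes at gene level. In early total RNA it was at 9.71 and 8.92 FPKM in controls and 9.55 and 10.09 FPKM in SMA, and in late total RNA at 13.56, 14.09 and 16.70 FPKM in controls and 11.94, 12.65 and 17.49 FPKM in SMA. The log2 change was 0.08 ± 0.10 (SE), -0.04 ± 0.16, -0.09 ± 0.17 and 0.11 ± 0.06 in early total, early polysomal, late total and late polysomal RNA (adjusted p = 0.738, 0.941, 0.904 and 0.606, limma). The null allele removes only part of the gene and FPKM were given per gene, so that these values do not check the genotype labels.

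**Figure D1:**
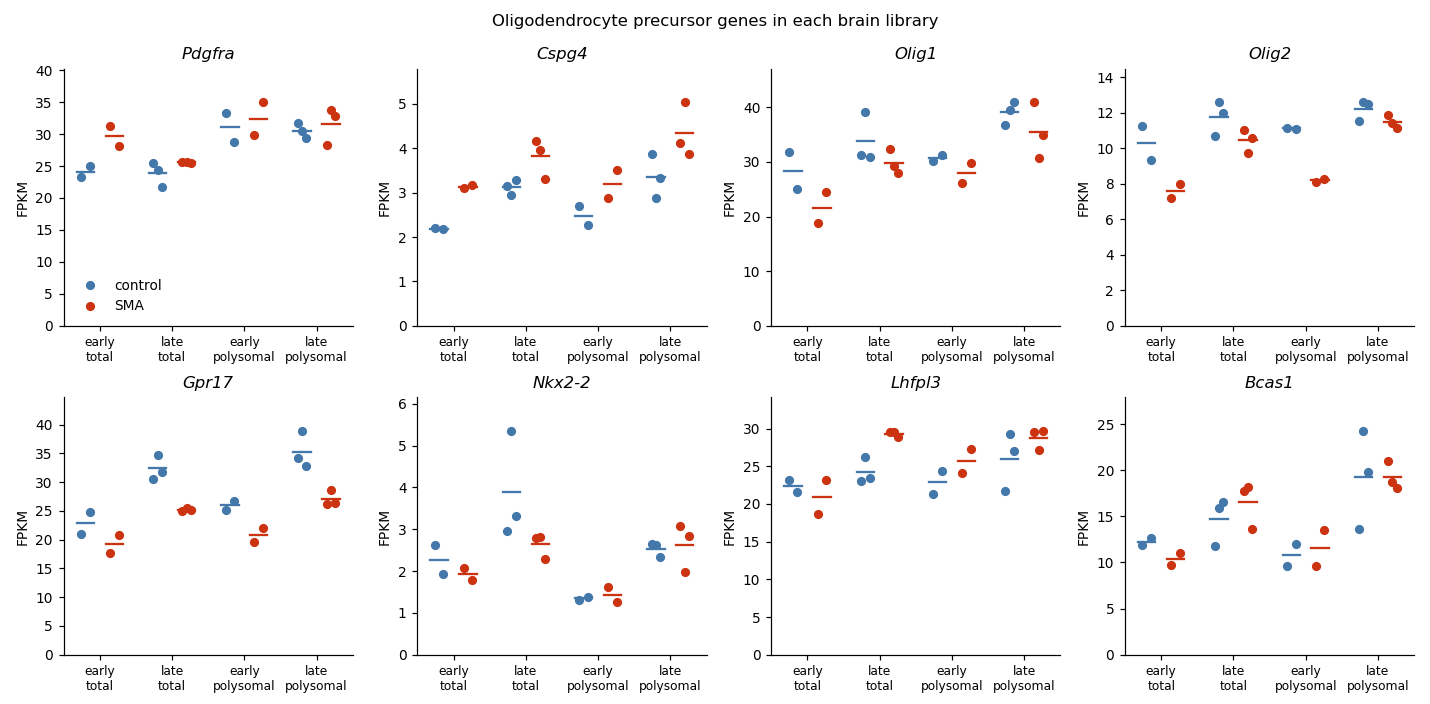
FPKM (linear axis from 0) of each of the 8 genes in every library, with control in blue, SMA in red, 1 point per library and a bar at the group mean. SMA points of Gpr17 lie below the control points at each stage and in each fraction, whereas Cspg4 points lie above them except in late polysomal RNA, where the groups overlap.

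Per unit of transcript length, 4 members were abundant and close together. Averaged over the 20 libraries, Olig1 stood at 31.6 FPKM, Pdgfra at 28.5, Gpr17 at 26.9 and Lhfpl3 at 25.5 FPKM. These neighbours changed places from library to library, since Olig1 exceeded Pdgfra in 14 of 20 libraries, Pdgfra exceeded Gpr17 in 14 and Gpr17 exceeded Lhfpl3 in 10. Below them Bcas1 averaged 15.0 FPKM, under Lhfpl3 in each of the 20 libraries, and Olig2 averaged 10.6 FPKM, under Bcas1 in 19 of them. Cspg4 (3.30 FPKM) and Nkx2-2 (2.45 FPKM) were the lowest, and Cspg4 exceeded Nkx2-2 in 17 of 20 libraries. Among tested genes Cspg4 stood at the 20.5th percentile of mean level and Nkx2-2 at the 14.7th, and Nkx2-2 was close to the filter in early polysomal RNA, at 1.31 and 1.38 FPKM in controls and 1.61 and 1.25 FPKM in SMA. Cspg4 is also made by pericytes and Pdgfra by fibroblasts of the meninges and vessels, and in bulk RNA fewer cells of a type and less RNA per cell cannot be told apart.

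The loci of 7 members are given on GRCm38 (Gencode M21). Pdgfra spans chr5:75152292-75198215 on the plus strand, Cspg4 chr9:56865033-56899870 on the plus strand, Olig2 chr16:91225457-91228677 and Olig1 chr16:91269772-91271933, both on the plus strand. Nkx2-2 spans chr2:147177546-147194243 and Bcas1 chr2:170346991-170427845, both on the minus strand, and Lhfpl3 spans chr5:22746059-23275597 on the plus strand. The longest annotated transcripts differ widely, from 2120 nt for Nkx2-2, 2162 nt for Olig1 and 2530 nt for Olig2 through 2952 nt for Bcas1 and 3115 nt for Lhfpl3 to 5195 nt for Gpr17, 6834 nt for Pdgfra and 8121 nt for Cspg4. Pdgfra, Nkx2-2, Lhfpl3 and Bcas1 share their loci with antisense genes and Olig1 with a lincRNA on the opposite strand. The programs were run at their defaults, which make no use of strand, so that reads from overlapping stretches cannot be told apart by strand. Antisense partners had low values of their own, such as 0.31 FPKM on average at Pdgfra (RP23-55P22.6). At Nkx2-2 the value was 0.51 FPKM (6430503K07Rik) and at Bcas1 0.76 FPKM (Bcas1os1).

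Pdgfra, Cspg4 and Olig2 are members with an unadjusted p below 0.05 (limma) in an early-symptomatic comparison, for which a promoter sequence was used. None passed adjustment over all genes, and further limits are described later. The 250 bases before the annotated start (RefSeq, GRCm38.p6, plus strand, 5′ to 3′) are shown for these members. Capitals mark every match, on either strand, to the E box CANNTG (bound by bHLH factors such as OLIG2 itself), to TATAAA and to GGGCGG (a GC box).
Pdgfra, chr5:75152001-75152250: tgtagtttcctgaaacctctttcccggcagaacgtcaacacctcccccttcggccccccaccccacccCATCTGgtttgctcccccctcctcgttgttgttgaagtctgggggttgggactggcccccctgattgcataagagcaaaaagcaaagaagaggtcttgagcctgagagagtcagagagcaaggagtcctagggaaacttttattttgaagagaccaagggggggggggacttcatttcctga
Cspg4, chr9:56864854-56865103: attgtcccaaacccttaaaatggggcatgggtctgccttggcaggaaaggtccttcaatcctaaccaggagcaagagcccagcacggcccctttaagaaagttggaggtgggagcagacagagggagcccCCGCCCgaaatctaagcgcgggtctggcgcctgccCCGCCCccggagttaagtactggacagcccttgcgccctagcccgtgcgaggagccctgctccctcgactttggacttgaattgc
Olig2, chr16:91225300-91225549: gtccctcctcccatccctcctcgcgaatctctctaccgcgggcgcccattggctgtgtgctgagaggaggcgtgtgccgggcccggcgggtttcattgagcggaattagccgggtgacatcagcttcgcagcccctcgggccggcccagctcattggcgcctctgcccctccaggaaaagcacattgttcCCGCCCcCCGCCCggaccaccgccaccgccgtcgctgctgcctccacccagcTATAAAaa
The Pdgfra window held 1 E box and neither other motif, the Cspg4 window 2 GC boxes and no E box, and the Olig2 window 2 GC boxes and a TATAAA next to the start, without an E box. Over all 32851 such windows in the RefSeq table, 66.2% held at least 1 E box, 32.7% a GC box and 12.4% a TATAAA. The windows of Nkx2-2 and Lhfpl3 held 3 and 2 E boxes. These are matches of letters only. Olig1, Gpr17 and Bcas1 are named without sequence.

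In the early-symptomatic transcriptome the receptor and the proteoglycan were higher in SMA and the other 6 members had negative estimates. Pdgfra was at 23.24 and 24.95 FPKM in controls and 31.23 and 28.12 FPKM in SMA, without overlap, a log2 change of 0.30 ± 0.09 (95% interval 0.03 to 0.57, adjusted p = 0.551). Cspg4 was at 2.21 and 2.17 FPKM in controls and 3.10 and 3.17 FPKM in SMA, also without overlap, a log2 change of 0.50 ± 0.11 (95% interval 0.17 to 0.83, adjusted p = 0.551). The transcription factors ran the other way without passing the test. Olig2 was at 11.24 and 9.33 FPKM in controls against 7.20 and 7.99 FPKM in SMA (log2 change -0.43 ± 0.15, adjusted p = 0.551), and Olig1 at 31.75 and 25.0 FPKM against 18.76 and 24.45 FPKM (-0.39 ± 0.21, adjusted p = 0.553, and -0.58 to -0.20 with 1 library left out). For both factors the SMA libraries lay below both controls, narrowly so for Olig1.

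The count of members called in early total RNA was 2 of 8, both higher, where a call means an unadjusted p below 0.05, the threshold of the study, and 8.25% of all 15247 genes were called. No member passed after adjustment over all genes. Groups of 2 separated without overlap in 6 of 8 members, but so did 47.6% of all genes, since 2 libraries against 2 separate easily. Gpr17 was at 21.0 and 24.82 FPKM in controls and 17.74 and 20.86 FPKM in SMA (log2 change -0.25 ± 0.14, adjusted p = 0.559). Nkx2-2, Lhfpl3 and Bcas1 had log2 changes of -0.22, -0.10 and -0.24. None of these passed the test. With 1 library left out, Gpr17 lay between -0.37 and -0.13 and Bcas1 between -0.33 and -0.14. Nkx2-2 lay between -0.43 and -0.0001, and Lhfpl3 between -0.26 and 0.05, so that its sign was not stable.

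The early fold changes ran with transcript length across all genes, which bears on the members because they differ in length. Spearman's rho between log2 change and longest transcript was 0.393 across genes in early total RNA and 0.310 in early polysomal RNA, and -0.034 and -0.065 in the late comparisons (genes are not independent replicates). Pdgfra and Cspg4 are the 2 longest members. After a lowess correction for length in each library, the early total RNA change of Pdgfra was 0.12 and that of Cspg4 0.29, neither a call any more, while Olig2 was at -0.36, now a call, and Gpr17 at -0.36, not a call. In early polysomal RNA it took Cspg4 from 0.35 to 0.17, Pdgfra from 0.06 to -0.08 and Olig1 from -0.14 to -0.03, none of these a call. In the late-symptomatic stage the same correction left Gpr17 at -0.35 in total and -0.37 in polysomal RNA.

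**Figure D2:**
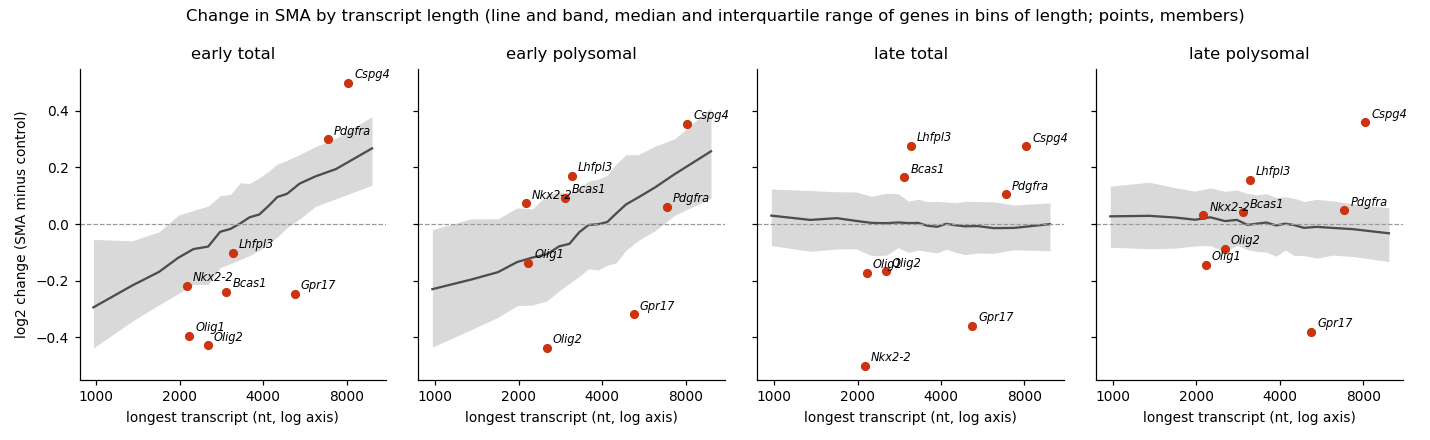
Log2 change of SMA against control (vertical axis) by longest annotated transcript in nt (horizontal log axis) in the 4 comparisons; the line and band are the median and interquartile range of genes in bins of 758 or 759 genes, leaving out the bins with a median length under 500 nt, and red points are the 8 members. The band climbs with length in both early panels and is flat in both late panels, and Gpr17 lies below the band in all 4 while Pdgfra lies inside or near it.

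In the early-symptomatic translatome Olig2 and Gpr17 fell. Olig2 was at 11.16 and 11.06 FPKM in controls and 8.11 and 8.26 FPKM in SMA, a wide gap between tight pairs (log2 change -0.44 ± 0.09, adjusted p = 0.381). Gpr17 was at 25.15 and 26.77 FPKM in controls and 19.64 and 21.99 FPKM in SMA (-0.32 ± 0.09, adjusted p = 0.392). Olig1, which lies next to Olig2 on chromosome 16, was at 30.13 and 31.34 FPKM against 26.11 and 29.87 FPKM (-0.14 ± 0.10, adjusted p = 0.530). It lay between -0.23 and -0.04 with 1 library left out. Cspg4 was again higher in both SMA libraries (2.69 and 2.26 FPKM in controls, 2.87 and 3.52 FPKM in SMA), but its change of 0.35 ± 0.19 did not pass (adjusted p = 0.459), and Pdgfra overlapped between groups at 33.32 and 28.79 FPKM against 29.84 and 35.00 FPKM (0.06 ± 0.13, adjusted p = 0.834). In all 2 of 8 members were called, beside 12.5% of all genes, and 4 of 8 did not overlap, beside 50.5% of all genes. Leaving out any 1 of the 4 libraries ended both calls, with Olig2 between -0.45 and -0.42 and Gpr17 between -0.40 and -0.24. In early total RNA the Pdgfra call was lost without either control library or without SMA replicate 1 (0.22 to 0.37 over the 4 omissions), and the Cspg4 call without either control (0.48 to 0.51).

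At the late-symptomatic stage Gpr17 was the member that fell in both fractions. In total RNA it was at 30.52, 34.77 and 31.79 FPKM in controls and 24.97, 25.43 and 25.12 FPKM in SMA, so that the highest SMA library lay below the lowest control. The log2 change was -0.36 ± 0.05 (95% interval -0.50 to -0.22, adjusted p = 0.190), or 22.2% below the control mean. In polysomal RNA it was at 34.19, 38.87 and 32.77 FPKM in controls and 26.11, 28.54 and 26.42 FPKM in SMA (-0.38 ± 0.08, 95% interval -0.58 to -0.18, adjusted p = 0.251), 23.4% below the control mean. Both calls held when any 1 of the 6 libraries was left out, with log2 changes of -0.40 to -0.31 in total and -0.43 to -0.31 in polysomal RNA. The locus of Gpr17 overlaps Lims2 on the opposite strand, which averaged 3.45 FPKM over the 20 libraries.

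Lhfpl3 rose in the late transcriptome, from 23.02, 26.22 and 23.50 FPKM in controls to 29.52, 29.56 and 28.88 FPKM in SMA (0.28 ± 0.06, 95% interval 0.13 to 0.42, adjusted p = 0.299). All SMA libraries lay above all controls. With both stages in 1 fit the change in total RNA was 0.12 ± 0.09 and no longer a call (adjusted p = 0.588). In late polysomal RNA its groups overlapped, at 21.78, 29.24 and 27.02 FPKM against 29.58, 27.14 and 29.68 FPKM (0.16 ± 0.12, adjusted p = 0.682). Several low-level transcripts lie within the long Lhfpl3 locus.

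The other 6 members were not called at the late-symptomatic stage. Cspg4 was at 3.15, 2.94 and 3.29 FPKM in controls and 4.17, 3.97 and 3.31 FPKM in SMA total RNA (0.27 ± 0.12, adjusted p = 0.540) and had a log2 change of 0.36 ± 0.16 in polysomal RNA (adjusted p = 0.495). Pdgfra had log2 changes of 0.10 ± 0.06 in total and 0.05 ± 0.08 in polysomal RNA (adjusted p = 0.651 and 0.849), with 95% intervals of -0.06 to 0.27 and -0.15 to 0.25. Olig2 had log2 changes of -0.17 ± 0.09 and -0.09 ± 0.06, and Olig1 of -0.17 ± 0.11 and -0.14 ± 0.11, in total and polysomal RNA. Nkx2-2 was at 2.97, 5.35 and 3.32 FPKM in controls and 2.80, 2.81 and 2.30 FPKM in SMA total RNA, with 1 control far above the rest (-0.50 ± 0.25, adjusted p = 0.575). This change lay between -0.66 and -0.25 with 1 library left out. Bcas1 overlapped in both fractions, with log2 changes of 0.16 ± 0.18 and 0.04 ± 0.22. With 1 library left out these lay between 0.01 and 0.30 in total and between -0.19 and 0.23 in polysomal RNA.

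In late total RNA 2 of 8 members were called (Gpr17 lower, Lhfpl3 higher), beside 9.54% of all genes, and 5 of 8 did not overlap between groups, beside 15.0% of all genes. In late polysomal RNA 1 of 8 was called, beside 10.7% of all genes, and 1 of 8 did not overlap, beside 16.1%. Both of these were Gpr17. The median log2 change of the 8 members was -0.03 in total and 0.04 in polysomal RNA, against 0.00 over all genes tested, so that the members had no common direction.

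**Figure D3:**
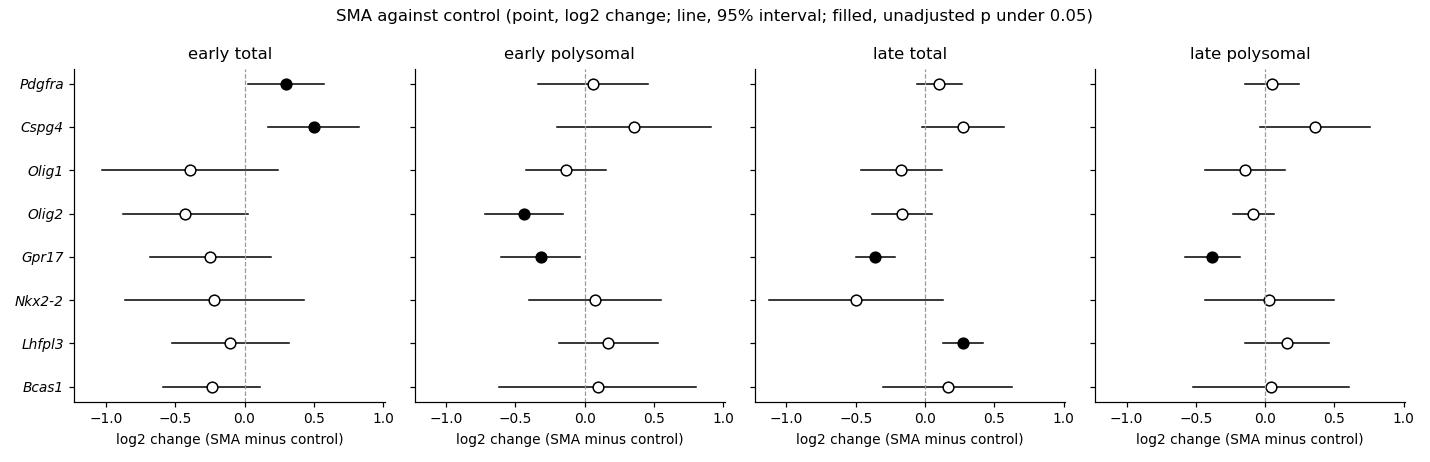
Log2 change of SMA against control for the 8 genes in the 4 comparisons (point) with its 95% interval (line); filled points have an unadjusted limma p below 0.05. Gpr17 is filled in all panels except early total RNA, where it has the same sign, and the other filled points are Pdgfra and Cspg4 (early total), Olig2 (early polysomal) and Lhfpl3 (late total).

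Both stages were then placed in 1 fit per fraction with stage as a term, a fit chosen after the values had been seen. Gpr17 had a log2 change of -0.31 ± 0.07 in total RNA (adjusted p = 0.102) and of -0.36 ± 0.06 in polysomal RNA (adjusted p = 0.0412), with all 5 SMA libraries of each fraction below the control mean of their stage. Cspg4 was higher by 0.36 ± 0.08 in total and 0.36 ± 0.11 in polysomal RNA (adjusted p = 0.110 and 0.204), in 5 of 5 libraries of each, without the length correction that lowered its early estimates. Olig2 had log2 changes of -0.27 ± 0.08 and -0.23 ± 0.07 (adjusted p = 0.227 and 0.201), lower in 5 of 5 libraries of each. These 6 changes, and those of Pdgfra (0.18 ± 0.06) and Olig1 (-0.26 ± 0.11) in total RNA, were the calls. Among all tested genes, 13.3% and 16.2% were called in the 2 fits. Only the polysomal change of Gpr17 passed the adjustment among the members.

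Within a library, Gpr17 can be set against Pdgfra, which marks the precursor stage before it (a ratio picked after the values were seen, given as a description). In late total RNA the ratio of their FPKM was 1.20, 1.43 and 1.46 in controls and 0.97, 0.99 and 0.98 in SMA. In late polysomal RNA it was 1.08, 1.28 and 1.12 in controls and 0.92, 0.85 and 0.80 in SMA. In early total RNA it was 0.90 and 0.99 against 0.57 and 0.74, and in early polysomal RNA 0.75 and 0.93 against 0.66 and 0.63. SMA libraries had the lower ratio at each stage and in each fraction.

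The change of the SMA effect from the early- to the late-symptomatic stage was tested directly. In total RNA Lhfpl3 differed between stages by 0.38 ± 0.14 (adjusted p = 0.486), from a log2 change of -0.10 early to 0.28 late, and 1 of 8 members was called beside 10.1% of all genes. This call held in 5 of 10 omissions of a library (0.22 to 0.53). In polysomal RNA Olig2 differed by 0.35 ± 0.08 (adjusted p = 0.241), from -0.44 early to -0.09 late, and 1 of 8 was called beside 13.7% of all genes. Gpr17 had differences of -0.11 ± 0.14 and -0.06 ± 0.12 (95% intervals -0.44 to 0.21 and -0.35 to 0.23).

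Ribosome engagement was compared as polysomal against total RNA. Pdgfra was enriched on polysomes, at 25.41, 24.31 and 21.79 FPKM in late control total RNA and 31.69, 30.44 and 29.36 FPKM in late control polysomal RNA (0.36 ± 0.07, adjusted p = 0.0470). The same difference was 0.36 ± 0.10 in early controls (adjusted p = 0.170) and 0.30 ± 0.07 in late SMA (adjusted p = 0.0601), and it did not pass in early SMA (0.12 ± 0.12, adjusted p = 0.656). Nkx2-2 was depleted from polysomes in early controls, at 2.63 and 1.92 FPKM in total and 1.31 and 1.38 FPKM in polysomal RNA (-0.70 ± 0.19, adjusted p = 0.162). In early SMA Nkx2-2 ran the same way, at -0.41 ± 0.18 without overlap, but did not pass (adjusted p = 0.441). In late controls it had -0.55 ± 0.24 (adjusted p = 0.230) and in late SMA -0.02 ± 0.20 (adjusted p = 0.976). When 1 library was left out, the late control value lay between -0.72 (without total replicate 1, then called) and -0.30 (without total replicate 2). In early controls the Pdgfra call held in 1 of 4 omissions of a library (0.26 to 0.47) and the Nkx2-2 call in 2 of 4 (-0.92 to -0.48).

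Called members numbered 2 of 8 in early controls (beside 25.9% of all genes), 0 of 8 in early SMA (12.6%), 1 of 8 in late controls (25.3%) and 1 of 8 in late SMA (29.6%). With the replicate number as a block these counts were 1, 1, 3 and 2, and the labels do not say whether a number marks the same brain. The translation efficiency (TE), the polysomal minus total log2 level, was compared between genotypes by the interaction of fraction and genotype. No member was called for a TE change in SMA at either stage, with 0 of 8 at an unadjusted p below 0.05, beside 2.32% of all genes early and 2.07% late. The estimates farthest from 0 were 0.33 ± 0.28 for Bcas1 early and 0.53 ± 0.32 for Nkx2-2 late. With 1 library left out they lay between 0.09 (without SMA polysomal replicate 2) and 0.57 for Bcas1, and between 0.28 (without control total replicate 2) and 0.72 (without SMA polysomal replicate 2, then called) for Nkx2-2. For Gpr17 the TE difference was -0.07 (95% interval -0.53 to 0.38) early and -0.02 (-0.24 to 0.20) late. Only the limma test was run on TE.

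Between postnatal day 5 and 7 the estimates of 7 of 8 members were positive in each genotype and fraction. In control total RNA Gpr17 went from 21.0 and 24.82 FPKM to 30.52, 34.77 and 31.79 FPKM (0.50 ± 0.10, adjusted p = 0.0394) and Cspg4 from 2.21 and 2.17 FPKM to 3.15, 2.94 and 3.29 FPKM (0.49 ± 0.09, adjusted p = 0.0336), and these were the 2 of 8 called, beside 40.3% of all genes. In control polysomal RNA 4 of 8 were called, beside 42.0%: Nkx2-2 rose by 0.86 ± 0.10, Bcas1 by 0.80 ± 0.29, Gpr17 by 0.44 ± 0.09 and Olig1 by 0.34 ± 0.07. The Bcas1 call held in 1 of 5 omissions of a library (0.61 to 1.03), the other 3 in 5 of 5. In SMA total RNA 7 of 8 were called, beside 32.7%. Of these 6 rose, from 0.39 ± 0.09 for Gpr17 to 0.65 ± 0.17 for Bcas1, and Pdgfra fell by 0.21 ± 0.06, from 31.23 and 28.12 FPKM to 25.66, 25.59 and 25.51 FPKM. The 7 calls became 3 without early replicate 1 and 4 without late replicate 1 or 2. The Pdgfra call held in 1 of 5 omissions of a library (-0.29 to -0.14) and was lost after the length correction (-0.08), and that of Nkx2-2 also held in 1 of 5 (0.33 to 0.54). In SMA polysomal RNA 4 of 8 were called, beside 41.0%, and all rose: Nkx2-2 by 0.82 ± 0.24, Bcas1 by 0.75 ± 0.17, Olig2 by 0.48 ± 0.06 and Gpr17 by 0.38 ± 0.07. Here the Nkx2-2 call held in 2 of 5 omissions (0.65 to 1.01). Gpr17 was called in each of the 4 stage comparisons, so that it rose with age in both genotypes. Stage and the preparation of the libraries cannot be told apart here, and the most abundant RNA shifted between stages, as given above.

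**Figure D4:**
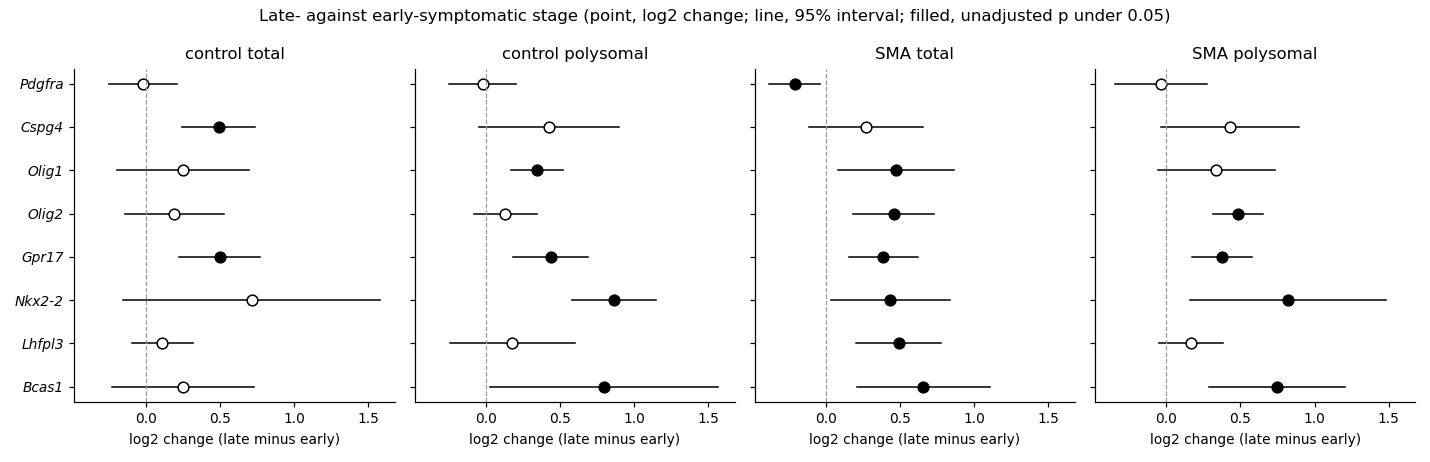
Log2 change from the early- to the late-symptomatic stage for the 8 genes in control and SMA, total and polysomal RNA (point), with the 95% interval (line); filled points have an unadjusted limma p below 0.05. Gpr17 is filled and positive in every panel, and Pdgfra is filled only in SMA total RNA, where it is negative.

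Of 12 further genes of this stage, among them Sox10 (a lineage transcription factor) and Ptprz1 (a receptor phosphatase, the most abundant of them at 124.8 FPKM on average), 0 were called by genotype in early total, early polysomal or late polysomal RNA, beside 8.25%, 12.5% and 10.7% of all genes. In late total RNA 2 of 12 were called, beside 9.54%. Tnr, which encodes the matrix protein tenascin-R, rose by 0.21 ± 0.06 (adjusted p = 0.422) and Matn4, a matrilin, fell by 0.27 ± 0.08 (adjusted p = 0.435). The median log2 change of the 12 was 0.08, 0.11, -0.03 and 0.05 in early total, early polysomal, late total and late polysomal RNA. Between the stages 7 of 12 were called higher and 1 lower in control total RNA, 5 and 1 in control polysomal, 6 and 2 in SMA total and 7 and 2 in SMA polysomal RNA, beside 40.3%, 42.0%, 32.7% and 41.0% of all genes called in either direction. Sox10 rose by 0.73 ± 0.11 in control and by 0.72 ± 0.11 in SMA total RNA.

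Late calls among the 6 PDGF ligands and receptors were Pdgfa, Pdgfd, Pdgfrb and, in total RNA only, Pdgfb. Among all genes 9.54% were called in late total and 10.7% in late polysomal RNA. Pdgfra was not called, nor was Pdgfc, with a log2 change of -0.01 in each fraction. Pdgfa, the main PDGFRα ligand, was called higher in late SMA (0.17 ± 0.06 in total, 0.25 ± 0.07 in polysomal RNA, adjusted p = 0.490 and 0.365), as was Pdgfd (0.72 ± 0.16 and 0.64 ± 0.14, adjusted p = 0.325 and 0.269). Pdgfrb, the receptor of pericytes, fell by 0.50 ± 0.12 in total and 0.50 ± 0.08 in polysomal RNA (adjusted p = 0.327 and 0.202), and its endothelial ligand Pdgfb fell by 0.23 ± 0.08 in total RNA (adjusted p = 0.463). No gene of the 6 passed adjustment in these comparisons. In the early stage Pdgfra in total RNA was the 1 call in this list, beside 8.25% of all genes in total and 12.5% in polysomal RNA. Early estimates of Pdgfa ran opposite to its late ones, at -0.14 ± 0.07 in total and -0.21 ± 0.07 in polysomal RNA. Those of Pdgfd kept their sign, at 0.43 ± 0.17 and 0.06 ± 0.14.

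Genes that hold precursors back from differentiation gave scattered calls. Id2, an inhibitor of bHLH factors and the most abundant of the 7 at 68.8 FPKM on average, was higher by 0.22 ± 0.08 in late total and 0.22 ± 0.06 in late polysomal RNA (adjusted p = 0.490 and 0.359), and Id4 by 0.32 ± 0.10 in late total RNA (adjusted p = 0.436). Hes1, a Notch target, fell by 0.73 ± 0.19 in early polysomal and by 0.38 ± 0.15 in late polysomal RNA (adjusted p = 0.386 and 0.461). None of the 7 was called in early total RNA. The shares of all genes called were 8.25%, 12.5%, 9.54% and 10.7% in early total, early polysomal, late total and late polysomal RNA.

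Downstream of the precursor stage, 0 of 8 tested genes of newly formed oligodendrocytes were called in early total RNA, and 2 of 8 were called higher in each of early polysomal, late total and late polysomal RNA, beside 12.5%, 9.54% and 10.7% of all genes called in either direction. Tcf7l2, a transcription factor of this transition, rose in these 3, by 0.51 ± 0.15, 0.66 ± 0.16 and 0.72 ± 0.18 (adjusted p = 0.392, 0.327 and 0.301). The others were Zfp488 (0.74 ± 0.14, early polysomal), Itpr2 (0.44 ± 0.16, late total) and Tns3 (0.40 ± 0.10, late polysomal). Other estimates in this list were negative, without a call. Bmp4 had -0.32, -0.29, -0.15 and -0.08 in early total, early polysomal, late total and late polysomal RNA. Enpp6 had -0.32, -0.20 and -0.05 in early total, late total and late polysomal RNA, and Zfp488 had -0.18 in late polysomal RNA. Of 11 tested genes of myelinating oligodendrocytes, such as Mbp, 0 were called in any of the 4 comparisons, with median log2 changes of -0.05, -0.18, 0.17 and 0.24. Their summed level varied widely within groups, at 175, 424 and 428 FPKM in late control total RNA and 492, 428 and 262 FPKM in late SMA total RNA, and in the early stage at 185 and 312 FPKM in controls against 157 and 307 FPKM in SMA.

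Cells that also make Cspg4 and Pdgfra were followed by their own genes, because these moved with genotype. Of 7 tested pericyte genes 4 were called lower in early total, 3 in early polysomal, 6 in late total and 6 in late polysomal RNA, and 0 higher in each, beside 8.25%, 12.5%, 9.54% and 10.7% of all genes called in either direction, the shares against which the counts of the lists that follow can also be read. Rgs5, the most abundant, fell by 0.88 ± 0.09, 1.01 ± 0.09, 1.23 ± 0.09 and 1.39 ± 0.12 in this order. The summed level of all 8 pericyte genes was 79.1 and 81.3 FPKM in controls against 53.4 and 51.2 FPKM in SMA for early total RNA, 105 and 95.8 FPKM against 65.0 and 59.5 FPKM in early polysomal RNA, 74.5, 73.3 and 81.0 FPKM against 41.0, 48.0 and 46.1 FPKM in late total RNA, and 92.3, 91.3 and 96.2 FPKM against 50.5, 60.9 and 51.0 FPKM in late polysomal RNA. Cspg4 had positive estimates in the same 4 comparisons. Of 5 genes of fibroblasts and meninges 3, 3, 4 and 4 were called lower and 0 higher, and their sum, led by Col1a2, was 95.5 and 98.1 FPKM in control against 74.6 and 77.1 FPKM in SMA early total RNA and 101, 98.9 and 97.9 FPKM against 50.4, 62.5 and 59.5 FPKM in late total RNA. In polysomal RNA it was 104 and 111 FPKM against 72.7 and 91.0 FPKM early and 81.9, 87.4 and 84.3 FPKM against 49.0, 74.3 and 61.1 FPKM late. Pdgfra had estimates of 0.30, 0.06, 0.10 and 0.05 in early total, early polysomal, late total and late polysomal RNA, and the early polysomal one turned to -0.08 after the length correction. No gene of either list was listed at 0, and their part in the Cspg4 and Pdgfra values was not tested.

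**Figure D5:**
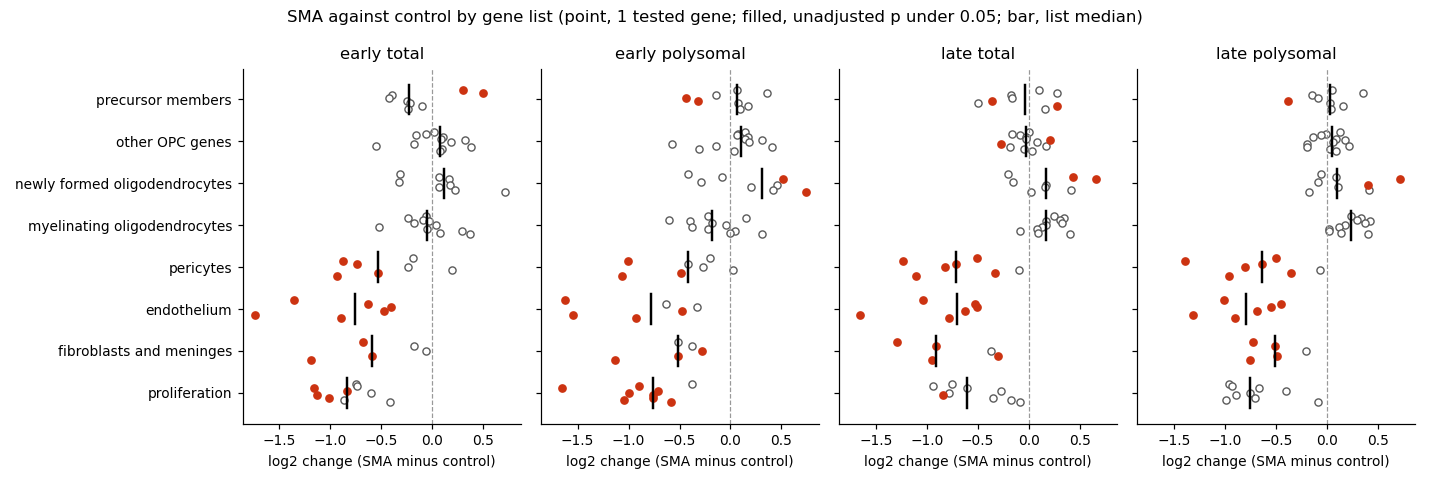
Log2 change of SMA against control for each tested gene (point) of 8 lists in the 4 comparisons, filled where the unadjusted limma p is below 0.05, with a bar at the list median. The precursor members and the other oligodendrocyte lists lie around 0, although the called genes of newly formed oligodendrocytes are all higher in SMA. Called genes of pericytes, endothelium, fibroblasts and meninges, and proliferation are all lower in SMA.

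Genes of dividing cells had lower estimates in SMA at both stages, with calls mostly early. Of 9 proliferation genes 4 were called lower in early total, 8 in early polysomal, 1 in late total and 0 in late polysomal RNA, and 0 were called higher, beside 8.25%, 12.5%, 9.54% and 10.7% of all genes. All 9 estimates were negative in each comparison, with a median log2 change of -0.83, -0.76, -0.60 and -0.75 in this order. With 1 library left out the late medians lay between -0.83 and -0.25 in total RNA and between -0.99 and -0.38 in polysomal RNA, nearest 0 without SMA replicate 3 in both and also at -0.31 and -0.49 without control replicate 3. Early they lay between -1.10 and -0.55 in total RNA (1 to 4 called, 1 without control replicate 2 or SMA replicate 1) and between -0.996 and -0.71 in polysomal RNA (3 to 7 called, 4 without SMA replicate 1 and 3 without SMA replicate 2). Bub1, a spindle checkpoint kinase, had -1.04 ± 0.20 in early and -0.99 ± 0.45 in late polysomal RNA (adjusted p = 0.381 and 0.504). Cdk1, the mitotic kinase, fell by 1.16 ± 0.29 in early total and 1.65 ± 0.09 in early polysomal RNA (adjusted p = 0.551 and 0.0305). The sum of the list, led by Pcna, was 93.7 and 129 FPKM in early control total RNA and 60.9 and 73.7 FPKM in SMA, and 146 and 148 FPKM in early control polysomal RNA and 82.5 and 81.7 FPKM in SMA. In late polysomal RNA, where limma called none, the sum was 67.7, 85.6 and 104 FPKM in controls and 70.7, 78.7 and 49.1 FPKM in SMA. These genes are shared by all dividing cells of the brain, and their part in the early Olig2 and Gpr17 values was not tested.

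Of 6 endothelial genes, led by Cldn5, 6, 4, 6 and 6 were called lower in early total, early polysomal, late total and late polysomal RNA (beside the same shares of all genes), and vascular smooth muscle genes were called lower in 0, 2, 2 and 3 of 3. Astrocyte genes gave 2, 0, 1 and 1 of 8 called higher, with Aldoc up by 0.77 ± 0.10 in late total RNA. Neuronal genes gave 1, 1, 1 and 0 of 8 higher, among them Tubb3 in early polysomal RNA, where both controls were listed at 0, and their most abundant gene was Stmn2. Of 6 microglial genes, led by C1qa, 0, 0, 2 and 1 were called higher and 1, 1, 1 and 0 lower. Of 5 progenitor genes, led by Dcx, 0, 1, 0 and 0 were called higher and 0 lower in each, and of 5 blood genes, led by Hba-a1, 1, 0, 0 and 1 were called lower.

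Across the 20 libraries the members did not share 1 profile. Olig1 and Olig2 were closest (Pearson's r = 0.87 over the 20 libraries on the log2 scale, 0.74 after the mean of each of the 8 groups was removed), followed by Olig2 and Gpr17 (0.83, but 0.09 with group means removed) and Lhfpl3 and Bcas1 (0.78 and 0.77). Pdgfra had r = -0.57 with Nkx2-2 and -0.11 with Gpr17, and -0.30 and 0.14 with group means removed. The 5 genes most like the mean standardized profile of the 8 members were Glrx and Ppap2b (r = 0.95 each), Ldhb, Mdh2 and Ppt1 (0.94 each), and with group means removed they were Otx2 (0.91), Nefh and Smndc1 (0.89 each), Zfp36l2 (0.87) and Eif2ak2 (0.85). Of these Otx2 and Eif2ak2 had r = -0.47 and -0.25 over the 20 libraries before that step. The libraries share stage, fraction and depth, so that these values describe this set of libraries.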

How the data were processed

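The 20 libraries of mouse brain (8 groups by genotype, fraction and stage) were made from total and polysomal RNA with a stranded total RNA kit. Per the labels and the methods of the study, the authors aligned reads with TopHat2 2.0.14 to GRCm38.p4 with Gencode M6 and deposited 1 FPKM value per gene and library from Cufflinks 2.2.1. FPKM divides by transcript length and by the mapped total of the library, so that abundant RNAs shift all other values, and it keeps no counts. The programs were run at their default settings, which do not use strand, although the kit keeps it.

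FPKM were taken to log2(FPKM + 0.1), 15247 genes averaging 1 FPKM or more were kept, and each of 16 comparisons was fitted with limma 3.58.1 (R 4.3.3, eBayes with a trend) over the libraries it concerns, with Benjamini-Hochberg adjustment over all tested genes. Changes are on this log2 scale, which understates those of low genes, and ± is the SE of the fit. A call is an unadjusted p below 0.05, as in the study, whose own count-based tests need reads and were not run. TE changes and stage differences are interaction terms. The steps were tested on simulated data.

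The 8 members, the 15 other gene lists and the fits were chosen with earlier results of these data known. Named beside the members were Smn1, up to 3 called genes per direction with the largest change in each list, its most abundant gene, and the 5 genes most like the members. Not every gene this rule names is reported here. No pair of libraries was identical. Alternatives were 2 pseudocounts, 3 filters, 2 rescalings, a transcript length correction, no trend, 1 model over all libraries, the replicate number as a block, each library left out, and, added after seeing the data, both stages in 1 fit and the proliferation list without each library.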

Additional observations from a re-analysis of the deposited data

Results flagged for a closer look

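The effect of SMA on Lhfpl3 in total RNA differed between the early- and late-symptomatic stages by 0.38 on the log2 scale (limma interaction, adjusted p = 0.486), with 2 control and 2 SMA libraries early and 3 of each late. The effect on Olig2 in polysomal RNA differed by 0.35 (adjusted p = 0.241). Early fold changes ran with transcript length across genes and late ones did not, and after the length correction the differences were 0.36 and 0.25, both still past the unadjusted threshold. Each was 1 of 8 members tested in its fraction and neither passed adjustment over all genes. With the replicate number as a block the Lhfpl3 difference (0.38) was no longer called, and the Olig2 difference (0.35) still was. The Lhfpl3 call was also lost when some single libraries were left out.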

How the results depend on the processing

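The 2 late calls of Gpr17 held under all 18 alternatives tried for each, with log2 changes of -0.40 to -0.31 in total and -0.43 to -0.31 in polysomal RNA, and no member called in any comparison changed sign under an alternative. Early total RNA had 1 call instead of 2 with the filter at 5 FPKM (which drops Cspg4) or no trend (Pdgfra lost), 1 with the length correction (both lost and Olig2 gained), 5 with 1 model over all 20 libraries, and 0 with the replicate block. The 2 early polysomal calls became 1 with quantile normalization. The 1 late polysomal call became 2 with equal medians, quantile normalization, the length correction or 1 model over all libraries. With both stages in 1 fit, 5 members were called in total and 3 in polysomal RNA, and the late total RNA call of Lhfpl3 was lost (0.12). For polysomal against total RNA, early controls had 1 call instead of 2 with the filter at 0.1 or 5 FPKM, no filter, quantile normalization or the replicate block, early SMA had 2 instead of 0 with 1 model and 1 with the block, late controls 2 instead of 1 with 1 model and 3 with the block, and late SMA 2 instead of 1 with the block. For late against early stage, control total RNA had 1 call instead of 2 with the filter at 5 FPKM (which drops Cspg4), and SMA total RNA 2 instead of 7 with the block. The cause of these shifts was not tested, other than where a filter drops a gene.

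Leaving out 1 library each gave 0 to 2 calls in early total and 0 in early polysomal RNA, 2 to 3 in late total and 1 to 2 in late polysomal RNA (2 without control or SMA replicate 1), and 0 for TE early and 0 to 1 late (1 without polysomal control replicate 1 or SMA replicate 2). For polysomal against total RNA it gave 0 to 1 in early controls, 0 to 1 in early SMA (1 without total replicate 2), 1 to 3 in late controls (3 without polysomal replicate 1, 2 without total replicate 1 or 2) and 1 to 2 in late SMA (2 without polysomal replicate 2). For late against early SMA total RNA it gave 3 to 6 (3 without early replicate 1, 4 without late replicate 1 or 2). The stage difference in total RNA gave 0 to 2 calls (0 without early replicate 1 of either genotype, late control replicate 1 or late SMA replicate 2, and 2 without early control replicate 2). Where 1 library was left in an arm, it was assumed to vary like the other groups.

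Libraries with the same replicate number were checked for pairing by the correlation of their deviations from the group means, which lay between -0.09 and 0.11 over all tested genes and did not meet the mark for pairing (every pair above 0.1). Several genes did run together in total and polysomal RNA, as Mbp at 68.1, 172.3 and 183.8 FPKM against 83.6, 207.8 and 191.0 FPKM in late control replicates 1 to 3. Eomes was at 1.27, 0.87 and 2.75 FPKM against 1.39, 0.88 and 2.72 FPKM there. In late SMA it was at 2.24, 1.01 and 0.55 FPKM against 2.26, 0.99 and 0.83 FPKM. The main fits do not use the number, and a shared source of total and polysomal RNA cannot be told from these values. With the number as a block, the early total RNA changes of Pdgfra and Cspg4 kept their size of 0.30 and 0.50 and were no longer called, and the stage difference in total RNA had 0 calls instead of 1 (Lhfpl3, still 0.38). The number of reads behind each FPKM is unknown, which limits what can be said of Nkx2-2 and Cspg4, the lowest members.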
